A study of Mus musculus with 12 samples.

Results

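The genes described here are 39 genes of the interferon response and of MHC class I antigen presentation, chosen by name from their known function and not by their level on these arrays. Of these, 33 were measured among 17097 genes, each through 1 probe set, the one with the highest mean among those annotated to that gene alone. The interferon-induced genes Isg15, Bst2 and Ifi44 and the antigen presentation genes Tap1, Tap2 and B2m were not analysed here. The samples were basal cells of the tail interfollicular epidermis of CD1 mice, taken 4 and 7 days (D4 and D7) after a punch wound of 3 mm. The leading edge (LE) came from a 4 mm punch around the wound, the proliferative hub from a 6 mm punch, and the control from unwounded skin far from the wound at the same days. Each of the 6 groups held 2 arrays, each of 300 cells pooled from 5 mice and sorted as positive for α6-integrin and negative for CD34. Their RNA was amplified before hybridization. A punch cannot separate the regions cell by cell, so the LE sample is enriched for LE cells only, and fewer cells of one kind cannot be told apart from less RNA per cell.

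Cells sense foreign nucleic acid through receptors such as RIG-I and MDA5 and answer by secreting interferons. Type I and type III interferons act through the kinases Jak1 and Tyk2 and a factor complex that holds Stat2 and Irf9 and binds the interferon-stimulated response element (ISRE), while interferon gamma acts at gamma-activated sites (GAS). The induced genes encode antiviral effectors, more sensors, GTPases against intracellular pathogens and the machinery that loads peptides onto MHC class I. In skin, keratinocytes both make and respond to interferons.

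The values are log2 intensities, and a difference of 1 is a 2-fold difference. A gene was called higher or lower where the moderated test of limma gave an adjusted p under 0.05 over all 17097 genes. The 2 arrays of a group correlated across genes, which are not independent replicates, with r of 0.988 to 0.994. The array medians were 5.40 to 5.47 at D4 and 4.25 to 4.28 at D7, so the regions were compared within a day. At D4, 17 of the 33 genes lay above the median on all 6 arrays, 12 lay below it on all 6 and 4 on some. At D7 these counts were 14, 15 and 4. Levels below the array median may hold little signal from the gene itself, and a change in such a gene can be understated.

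Promoters are shown first because they carry the elements through which these genes are known to be induced. The RefSeq windows (build GRCm38.p6) of 250 bases before to 50 after the transcription start were found for 24 of the 33 genes. They were searched on both strands for an ISRE-type motif (GAAA, any 2 bases, GAAA) and a GAS-type motif (TTCNNNGAA), and a match is only a description of the letters. The ISRE-type motif was in a window of 45.8% of the 24 genes (11 genes), beside 3.6% of the 13514 tested genes with a window. The GAS-type motif was in 20.8% (5 genes), beside 8.76% of the tested genes. Below are the 200 bases before the start for the called genes with a match there, Irf1 and Trim30a, and for the 4 genes with a pair of ISRE-type matches, Ifit1, Ifit3, Gbp3 and Irgm1, none of which was called in any comparison. Capitals mark the matches (overlapping in Gbp3 and Irgm1), and the set was chosen after the values were seen.
Irf1 (chr11:53769814-53770013, plus strand): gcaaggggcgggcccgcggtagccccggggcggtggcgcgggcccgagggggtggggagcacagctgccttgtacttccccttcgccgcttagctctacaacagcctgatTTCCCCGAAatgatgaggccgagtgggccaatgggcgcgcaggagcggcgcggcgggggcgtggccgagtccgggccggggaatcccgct
Trim30a (chr7:104465194-104465393, minus strand): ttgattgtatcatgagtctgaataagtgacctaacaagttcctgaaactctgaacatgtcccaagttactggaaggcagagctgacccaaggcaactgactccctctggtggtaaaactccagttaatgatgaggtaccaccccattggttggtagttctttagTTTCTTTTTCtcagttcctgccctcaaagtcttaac
Ifit1 (chr19:34640689-34640888, plus strand): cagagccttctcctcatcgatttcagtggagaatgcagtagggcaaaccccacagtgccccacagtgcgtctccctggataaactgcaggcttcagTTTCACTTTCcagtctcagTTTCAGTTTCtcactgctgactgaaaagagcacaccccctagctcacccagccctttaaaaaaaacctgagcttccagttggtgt
Ifit3 (chr19:34583329-34583528, plus strand): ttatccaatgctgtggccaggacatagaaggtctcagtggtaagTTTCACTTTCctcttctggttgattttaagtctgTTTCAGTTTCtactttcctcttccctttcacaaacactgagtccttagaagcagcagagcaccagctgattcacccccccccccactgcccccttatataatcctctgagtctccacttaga
Gbp3 (chr3:142559844-142560043, plus strand): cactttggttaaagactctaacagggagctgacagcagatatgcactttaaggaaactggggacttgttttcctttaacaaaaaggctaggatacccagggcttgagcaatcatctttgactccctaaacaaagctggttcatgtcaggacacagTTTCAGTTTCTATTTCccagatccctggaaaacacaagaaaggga
Irgm1 (chr11:48871421-48871620, minus strand): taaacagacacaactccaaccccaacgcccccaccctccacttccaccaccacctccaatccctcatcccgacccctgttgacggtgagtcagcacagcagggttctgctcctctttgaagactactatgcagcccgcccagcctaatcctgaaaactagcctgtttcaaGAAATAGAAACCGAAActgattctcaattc

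The match in Irf1 is a GAS-type motif whose first base lies 90 bases before the start, and that in Trim30a an ISRE-type motif 36 bases before it. The matches begin 104 and 85 bases before the start in Ifit1, 156 and 122 in Ifit3, 45 and 39 in Gbp3, and 30 and 24 in Irgm1. Of the other called genes, Samhd1 has a GAS-type match farther from its start, Irf9 and Tapbp have a window with no match, and no window was found for Ifi27l2a and Parp14.

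In the LE, the median absolute log2 fold change of the 33 genes against control was 0.15 at D4 and 0.16 at D7. The same median over all genes is not given, so these values do not set the 33 genes apart from others. The calls fell on 2 transcription factors and 4 single genes of other roles. Of the 25 genes neither called nor past 2-fold in any comparison, 17 at D4 and 18 at D7 lay within 0.2 of 0 on the log2 scale. These 25 were set apart because they were not called or past 2-fold, so that count was partly fixed by the choice. At D4, 1 of the 33 genes was called higher in the LE than in control (Samhd1) and 4 lower (Irf1, Irf9, Ifi27l2a and Tapbp), where 8.30% of all genes tested were called higher and 5.83% lower. At D7, 1 was higher (Samhd1) and 3 lower (Ifi27l2a, Parp14 and Tapbp), where 9.25% of all genes were higher and 5.37% lower. The same shares stand beside the counts of the LE against control given below for each group of genes. The median log2 fold change of the 33 genes was -0.01 at D4 and -0.11 at D7, beside 0.03 and 0.02 over all genes. The 95% interval of the fold change lay within 2-fold either way for 25 of the 33 genes at D4 and 28 at D7. No share of all genes with such an interval is given, so these counts are not a result about the 33 genes. They include genes below the array median, where a change can be understated. Under the rule of the study's methods, a change above 2-fold in each replicate, read here on arrays paired by number, Ifi27l2a at D4 was the 1 gene that passed, and 0 passed at D7, where 3.82% and 3.34% of all genes did.

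**Figure D1:**
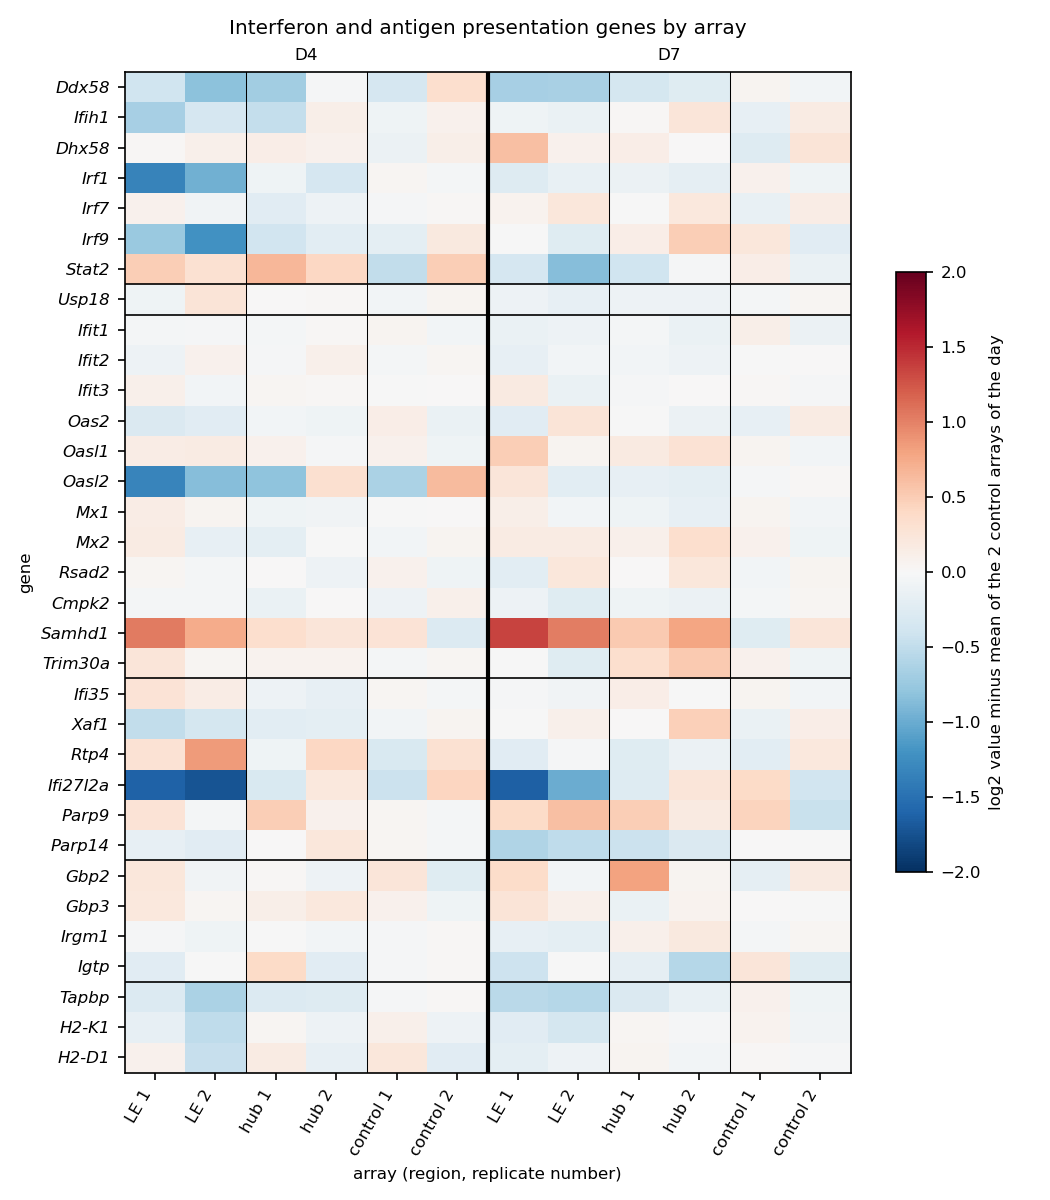
Log2 value of each of the 33 genes (rows) minus the mean of the 2 control arrays of the same day, for the 12 arrays (columns: LE, hub and control, D4 left and D7 right of the thick line). Rows run through sensors and transcription factors, Usp18, antiviral effectors, other induced genes, GTPases and MHC class I genes. Ifi27l2a is lower on all 4 LE arrays and Samhd1 higher on all 4, the darkest cells of Irf1 and Irf9 are the LE arrays of D4, and the rows of Ifit1, Ifit2 and Ifit3 are pale throughout.

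Among the sensors and transcription factors, 2 of 7 were lower in the LE at D4 and 0 of 7 were called at D7. Irf1, a transcription factor that interferon gamma induces, had 7.94 and 8.32 in the LE at D4, 9.20 and 8.95 in the hub, and 9.32 and 9.25 in control. Both LE arrays lay below all 4 others. Irf1 fell in the LE by 1.16 ± 0.14 on the log2 scale (SE, n = 2 arrays each, limma adjusted p = 0.000717). Against the hub its log2 fold change was -0.94 ± 0.14 (adjusted p = 0.00594). At D7 Irf1 had 7.38 and 7.50 in the LE, 7.52 and 7.46 in the hub, and 7.74 and 7.55 in control, and the LE and hub overlapped. The log2 fold change against control was then -0.20 (95% interval -0.52 to 0.12, adjusted p = 0.439). The difference between the days itself, 0.95 (interval 0.50 to 1.41), did not pass the correction (adjusted p = 0.232).

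Irf9, the DNA-binding subunit of the complex that turns on ISRE genes, had 7.65 and 7.19 in the LE at D4, 8.01 and 8.20 in the hub, and 8.21 and 8.59 in control. The LE arrays were the lowest of the 6, and the fold change against control was -0.98 ± 0.22 (adjusted p = 0.0152). Without LE D4 replicate 2 this call was lost (adjusted p = 0.0965), as it was without control D4 replicate 2. At D7 Irf9 had 6.69 and 6.45 in the LE, 6.83 and 7.19 in the hub, and 6.92 and 6.47 in control, with the LE and control overlapping (-0.12, adjusted p = 0.796). Stat2, the partner of Irf9, was not called. It had 7.84 and 7.64 in the LE and 6.85 and 7.83 in control at D4, a pair of control arrays that lie apart. Ddx58, which encodes RIG-I, was not called, with a fold change of -0.61 at D4 (interval -1.18 to -0.05) and -0.65 at D7 (interval -1.22 to -0.09). Its other probe sets gave 0.13 and -0.08 at D4, and -0.34 and -0.26 at D7. None of these was called when every probe set was tested by itself in limma (adjusted p from 0.314 to 0.844). Ddx58 was called lower at D4 without control D4 replicate 1 (adjusted p = 0.0448), and at D7 when the 6 arrays of the day (adjusted p = 0.00765) or the 4 arrays compared (adjusted p = 0.0165) were fitted alone. Ifih1, which encodes MDA5, had -0.50 and -0.11, and the first was called with the replicate number as a block (adjusted p = 0.0483). Irf7, the factor that amplifies interferon production, had 0.01 (adjusted p = 0.982) and 0.15 (adjusted p = 0.565). Dhx58, which encodes the related helicase LGP2, had 0.07 and 0.35, with all 12 values below the array median.

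Of the 12 antiviral effectors measured, 1 was higher in the LE at each day, Samhd1, and 0 were lower. Samhd1, a hydrolase that depletes the nucleotides retroviruses need, had 7.91 and 7.61 in the LE at D4, 7.20 and 7.11 in the hub, and 7.14 and 6.60 in control. Its LE arrays were the highest of the day, and it rose by 0.89 ± 0.22 (adjusted p = 0.0228). At D7 it had 6.89 and 6.57 in the LE, 6.06 and 6.34 in the hub, and 5.30 and 5.78 in control, and the 3 regions did not overlap. The fold change in the LE was 1.19 ± 0.22 (adjusted p = 0.00597). The second probe set of Samhd1 gave 0.85 at D4 and 1.02 at D7 and was called at neither day when every probe set was tested by itself (adjusted p = 0.109 and 0.0539). The D4 call was lost without LE D4 replicate 1 (adjusted p = 0.135) or control D4 replicate 2 (adjusted p = 0.142), and the D7 call without LE D7 replicate 1 (adjusted p = 0.0616).

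Oasl2, a relative of the oligoadenylate synthetases, had 4.62 and 5.10 in the LE at D4, 5.14 and 6.26 in the hub, and 5.31 and 6.59 in control. Replicate 2 was the higher array in each region. The fold change of -1.08 in the LE was past 2-fold and was not called (interval -2.03 to -0.14, adjusted p = 0.131). With the replicate number as a block it was called lower (adjusted p = 0.00988), as it was without control D4 replicate 1 (adjusted p = 0.0216). At D7 Oasl2 had 4.14 and 3.69 in the LE, 3.74 and 3.70 in the hub, and 3.88 and 3.92 in control, all below the array median. The classical effectors showed less. The tetratricopeptide genes Ifit1, Ifit2 and Ifit3, which bind viral RNA, had fold changes of -0.03, -0.01 and 0.02 at D4 and of -0.12, -0.11 and 0.02 at D7. Ifit1 had 4.23 and 4.25 in the LE at D4, 4.23 and 4.30 in the hub, and 4.33 and 4.21 in control, with all 6 below the array median. The interval for Ifit1 ran from -0.28 to 0.21 at D4 and from -0.36 to 0.13 at D7. Ifit3, above the median on all 12 arrays, had 6.28 and 6.12 in the LE at D4, 6.21 and 6.20 in the hub, and 6.18 and 6.18 in control.

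The GTPase Mx1 had 5.87 and 5.78 in the LE at D4 and 5.71 and 5.74 in control, a fold change of 0.10 (adjusted p = 0.632). Among the 9 effectors other than Samhd1, Oasl2 and Trim30a, the fold changes in the LE ran from -0.26 (Oas2) to 0.15 (Oasl1) at D4 and from -0.17 (Cmpk2) to 0.27 (Oasl1) at D7. Their 95% intervals stayed between -0.64 and 0.47 at D4 and between -0.42 and 0.59 at D7. Of these 9, Ifit1, Ifit2, Oasl1, Mx2, Rsad2 and Cmpk2 lay below the array median on all 12 arrays. Usp18, the protease that removes Isg15 from proteins, also lay below it throughout and had fold changes of 0.09 and -0.13.

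Of the 6 other interferon-induced genes, 1 was lower at D4 (Ifi27l2a) and 2 at D7 (Ifi27l2a and Parp14). Ifi27l2a, a small interferon-induced hydrophobic protein, had 6.60 and 6.49 in the LE at D4, 7.91 and 8.43 in the hub, and 7.80 and 8.64 in control. It had 5.05 and 5.68 in the LE at D7, 6.42 and 6.93 in the hub, and 7.06 and 6.31 in control. At both days the LE arrays lay below all others and the hub and control overlapped. The fold change against control was -1.68 ± 0.35 at D4 (adjusted p = 0.0109) and -1.32 ± 0.35 at D7 (adjusted p = 0.0318). Leaving out LE D4 replicate 2 (adjusted p = 0.0540) or control D4 replicate 2 (adjusted p = 0.0684) lost the D4 call, and leaving out LE D7 replicate 1 (adjusted p = 0.216) or control D7 replicate 1 (adjusted p = 0.196) the D7 call.

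Parp14, a mono-ADP-ribosyltransferase, had 5.19 and 5.29 in the LE at D7, 5.36 and 5.50 in the hub, and 5.80 and 5.79 in control. The 3 regions did not overlap, and Parp14 fell in the LE by 0.56 ± 0.11 on the log2 scale (adjusted p = 0.00811). At D4 it had 6.38 and 6.32 in the LE, 6.55 and 6.76 in the hub, and 6.58 and 6.50 in control (-0.19, adjusted p = 0.318). Its second probe set gave -0.24 at D7 (adjusted p = 0.570), and the D7 call was lost without LE D7 replicate 1 (adjusted p = 0.0678). Its neighbour in function Parp9 had fold changes of 0.11 and 0.50, neither called, though the second was called without control D7 replicate 1 (adjusted p = 0.0347). Xaf1, which promotes cell death, had -0.42 at D4 (adjusted p = 0.119) and 0.05 at D7. Rtp4, a chaperone of receptors, had 0.57 at D4 (adjusted p = 0.205) and -0.12 at D7. With the replicate number as a block, Xaf1 was called lower (adjusted p = 0.0431) and Rtp4 higher (adjusted p = 0.0101) at D4. Ifi35, which binds other interferon-induced proteins, had 0.21 and -0.05.

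None of the 4 interferon-induced GTPases was called in any comparison (limma). At an unadjusted p under 0.05 limma gave 0 of them in the LE against control at either day. In the LE against the hub at D7 it gave 1, Irgm1, which was lower (-0.33). No share of all genes at that limit is given for these comparisons, so the counts are not a result about the family. Gbp2, Gbp3, Irgm1 and Igtp, which attack vacuoles of intracellular pathogens, had fold changes in the LE from -0.11 (Igtp) to 0.13 (Gbp3) at D4 and from -0.21 (Igtp) to 0.18 (Gbp3) at D7. Irgm1, with its pair of ISRE-type matches, had 4.24 and 4.18 in the LE at D4 and 4.25 and 4.29 in control. Gbp2, Gbp3 and Irgm1 lay below the array median on all 12 arrays.

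Of the 3 MHC class I genes, which lay above the array median on all 12 arrays, 1 was lower in the LE at each day, Tapbp. Tapbp (tapasin), which holds empty class I molecules at the peptide transporter, had 10.30 and 9.94 in the LE at D4, 10.30 and 10.31 in the hub, and 10.56 and 10.60 in control. The fold change was -0.46 ± 0.13 (adjusted p = 0.0421), a call lost in 9 of the 12 fits that each left out 1 array. At D7 it had 9.20 and 9.17 in the LE, 9.46 and 9.60 in the hub, and 9.84 and 9.65 in control, with no overlap, and the fold change was -0.56 ± 0.13 (adjusted p = 0.0179). The D7 call was lost without either LE array of D7 (adjusted p = 0.0839 and 0.0842) or control D7 replicate 1 (adjusted p = 0.111). The second probe set of Tapbp gave -0.21 (adjusted p = 0.695) and -0.38 (adjusted p = 0.380).

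H2-K1, a class I heavy chain that presents peptides, had 12.30 and 11.96 in the LE at D4, 12.50 and 12.36 in the hub, and 12.57 and 12.36 in control (-0.34, adjusted p = 0.152). At D7 it had 11.21 and 11.09 in the LE, 11.48 and 11.43 in the hub, and 11.53 and 11.37 in control (-0.30, adjusted p = 0.201). The LE arrays were the lowest of each day. H2-D1, the other heavy chain, had -0.19 (adjusted p = 0.662) and -0.15 (adjusted p = 0.720). The chosen probe sets of both carry the suffix of sets whose probes can match several transcripts, and these genes are close paralogs, so the values are uncertain between them.

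**Figure D2:**
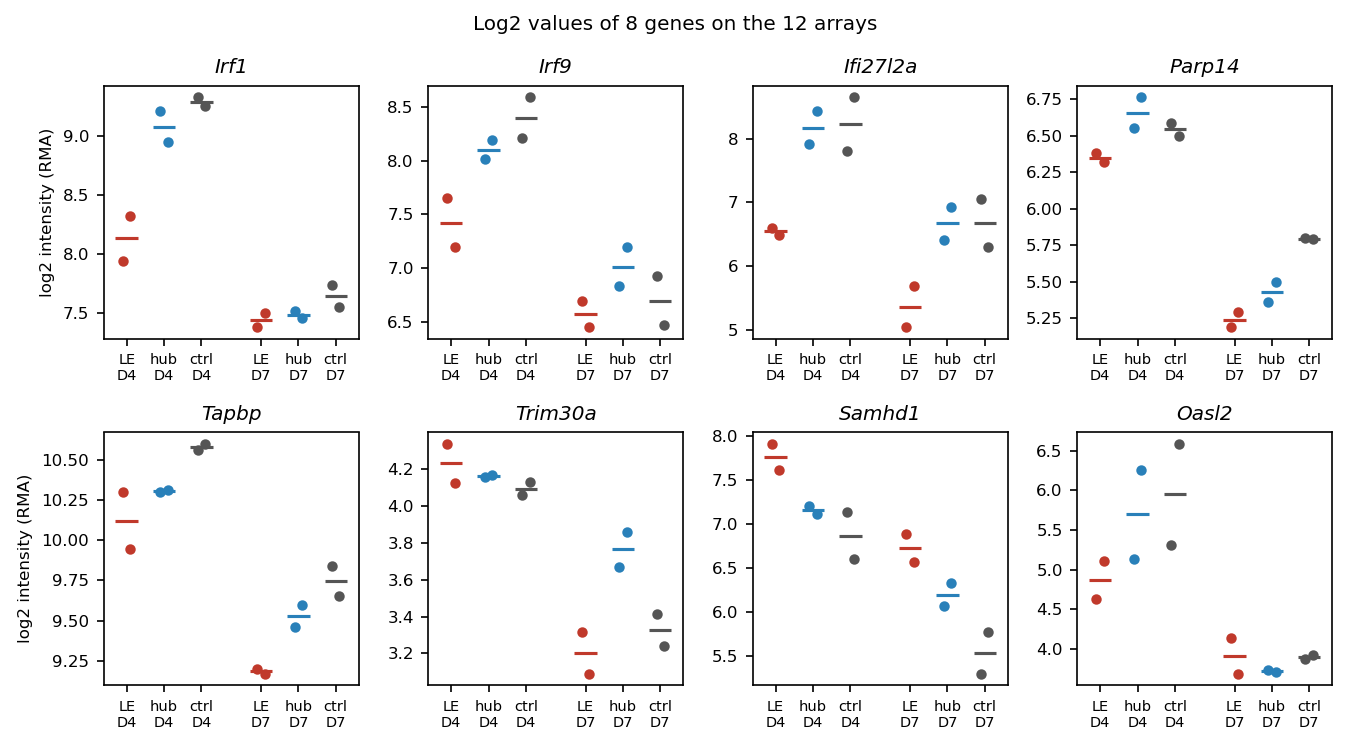
Log2 intensity (vertical axis, a separate scale in each panel) on the 12 arrays of the 7 genes called in any comparison and of Oasl2. Points are arrays, lines the means of 2, and each panel runs LE, hub and control at D4 and then at D7. In Ifi27l2a both LE arrays lie below all others at each day, in Irf1 only at D4, and in Samhd1 the LE arrays are the highest at each day.

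**Figure D3:**
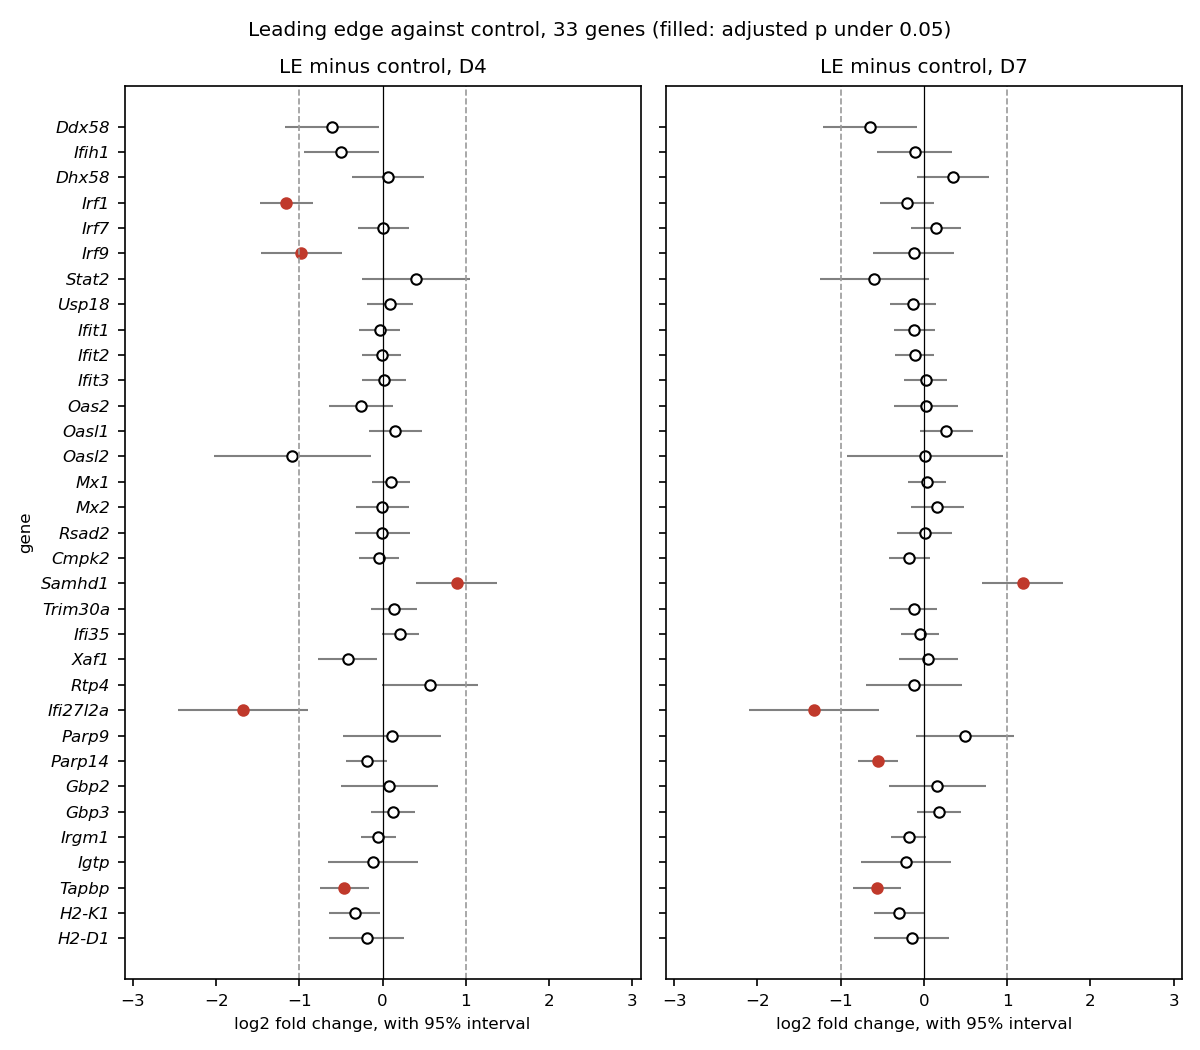
Log2 fold change of the LE against control (points) with its 95% interval (lines) for the 33 genes at D4 (left) and D7 (right). Filled points have an adjusted p under 0.05 and dashed lines mark 2-fold. The intervals of Ifit1, Ifit2, Ifit3, Mx1 and Rsad2 stay well inside the dashed lines, while Oasl2 and Ifi27l2a have wide ones.

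In the hub, none of the 33 genes was called against control at D4 or at D7. Over all genes 0.222% were called higher and 0.105% lower at D4, and 0.591% and 0.170% at D7. At an unadjusted p under 0.05 limma gave 0 of the 33 genes at D4 and 3 at D7, where 11.0% and 12.7% of all genes passed that limit, and the fold rule gave 0 at both days (0.445% and 0.509% of all genes). The 3 at D7 were Samhd1 (0.66, adjusted p = 0.229) and Trim30a (0.44, adjusted p = 0.169), both higher, and Parp14 (-0.37, adjusted p = 0.180). The median fold change was -0.03 at D4 and -0.00 at D7. The interval lay within 2-fold either way for 31 and 30 of the 33 genes, again with no share of all genes given beside these counts. Ifi27l2a had -0.05 in the hub at D4 (interval -0.83 to 0.73) and -0.01 at D7 (interval -0.79 to 0.77).

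Set directly against the hub, the LE was lower in 2 of the 33 genes at D4 and 1 at D7, and higher in 0. Over all genes 2.61% were higher and 2.15% lower at D4, and 1.33% and 1.40% at D7. At D4 these were Irf1, given above, and Ifi27l2a, with -1.62 ± 0.35 (adjusted p = 0.0281). Leaving out proliferative hub D4 replicate 2 lost the call of Ifi27l2a (adjusted p = 0.188), as did leaving out either LE array of D4. At D7 Ifi27l2a had -1.31 ± 0.35 and was not called (adjusted p = 0.0856), except when the 4 arrays compared were fitted alone (adjusted p = 0.0382). With arrays paired by number it was more than 2-fold lower in each pair at both days, as 1.78% and 1.16% of all genes were in either direction. At D7 this rests on the pairing, since LE replicate 2 lay less than 2-fold below hub replicate 1. Trim30a, a tripartite motif protein of mice, had 3.32 and 3.09 in the LE at D7, 3.67 and 3.86 in the hub, and 3.41 and 3.24 in control. The hub arrays were the highest and the LE overlapped with control, and the log2 fold change of the LE against the hub was -0.56 ± 0.13 (adjusted p = 0.0488). All of these levels were below the array median, the second probe set gave -0.10, and the call was kept in 2 of the 12 fits that each left out 1 array. At D4 Trim30a had 4.34 and 4.13 in the LE, 4.16 and 4.17 in the hub, and 4.06 and 4.13 in control.

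The change of a difference between the days was tested for both wound regions. For the LE against control, 0 of the 33 genes passed, where 0.0292% of all genes did, and 4 had an unadjusted p under 0.05 in limma (7.82% of all genes). These were Irf1 and Irf9 (0.85, adjusted p = 0.524), whose differences were smaller at D7, and Stat2 (-0.99, adjusted p = 0.601) and Parp14 (-0.36, adjusted p = 0.602). For the hub against control 0 genes passed among the 33 (0% of all genes), and 1, Parp14, had an unadjusted p under 0.05 (4.56% of all genes). So the call of Irf1 at D4 and its absence at D7 do not show that the days differ.

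The rest of the pathway was counted from lists of related genes. Of 5 interferon ligands measured (Ifna1, Ifna2, Ifna4, Ifnb1 and Ifng), 0 were called in any of the 6 comparisons by limma. At an unadjusted p under 0.05 there was 1 (LE against control, D7), and no share of all genes at that limit is given for this comparison. Among 9 receptors and kinases, Ifngr2, a chain of the interferon gamma receptor, was higher in the LE at D7 (0.68 ± 0.15, adjusted p = 0.0144). Ifngr1, another chain of that receptor, lay the other way and was not called. Its LE and control means were 9.28 and 9.61 at D4, and 7.91 and 8.22 at D7. Il10rb, shared by the type III receptor, rose above its hub level in the LE at D4 (0.57 ± 0.11, adjusted p = 0.0148). None of the 5 other STAT and IRF factors (Stat3, Irf2, Irf3, Irf5 and Irf8) was called in the LE against control. Over all genes 8.30% were called higher and 5.83% lower at D4, and 9.25% and 5.37% at D7. Among 9 further genes of nucleic acid sensing, Trim25, the ligase that activates RIG-I, was higher in the LE at D4 (0.68 ± 0.16, adjusted p = 0.0221) and Adar, an RNA-editing enzyme, was lower (-0.47 ± 0.14, adjusted p = 0.0491).

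Of 8 negative regulators, Nlrx1, a mitochondrial brake on antiviral signalling, was higher in the LE at both days. Nlrx1 averaged 8.85 in the LE at D4, 8.58 in the hub, and 7.97 in control, a fold change of 0.88 ± 0.16 in the LE (adjusted p = 0.00490). At D7 the fold change was 0.73 ± 0.16 (adjusted p = 0.0131). Pias1, a SUMO ligase, and Irf2bp2, a corepressor of Irf2, were lower in the LE at D7, with -0.44 and -0.36 (adjusted p = 0.0288 and 0.0472).

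Among 38 other interferon-induced genes measured, 1 was higher and 2 lower in the LE at D4, and 0 and 1 at D7. Of all genes tested, 8.30% were called higher and 5.83% lower at D4, and 9.25% and 5.37% at D7. Parp10, another mono-ADP-ribosyltransferase, had 8.19 and 8.22 in the LE at D4, 10.14 and 10.38 in the hub, and 10.77 and 10.81 in control. It had 7.33 and 7.56 in the LE at D7, 9.09 and 9.26 in the hub, and 9.52 and 9.32 in control. The LE lay apart from the other regions at both days, with fold changes against control of -2.59 ± 0.13 (adjusted p = 6.45e-06) and -1.98 ± 0.13 (adjusted p = 3.97e-05). Cxcl10, a chemokine that draws T cells, had 5.56 and 6.26 in the LE at D4, 7.07 and 7.53 in the hub, and 7.19 and 9.28 in control. The LE arrays were the lowest, and the control arrays lay far apart (-2.33 ± 0.67, adjusted p = 0.0460). At D7 Cxcl10 had -1.59 (adjusted p = 0.159). Rnf213, a large ubiquitin ligase, was higher in the LE at D4, both against control (1.20 ± 0.18, adjusted p = 0.00187) and against the hub (1.05 ± 0.18, adjusted p = 0.00991). The median over the 38 genes was 0.01 at D4 and -0.01 at D7.

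**Figure D4:**
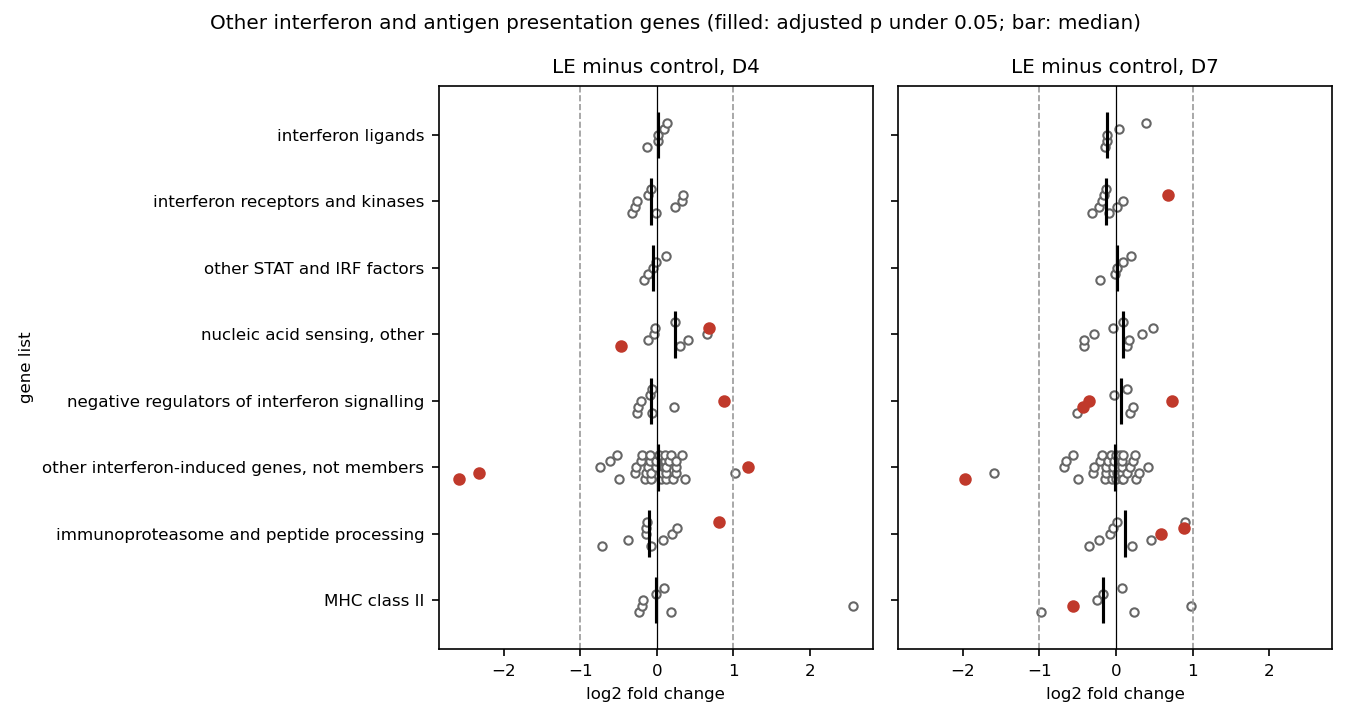
Log2 fold change of the LE against control at D4 (left) and D7 (right) for 8 lists of related genes, 1 point a gene. Filled points have an adjusted p under 0.05, black bars are the medians of a list and dashed lines mark 2-fold. Parp10 is the lowest point at each day and Cxcl10 the next at D4. The ligands lie close to 0, though all but Ifna1 had levels mostly below the array median. The open point far to the right at D4 is H2-Ab1 of MHC class II, at 2.56.

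For peptide supply to class I, 10 genes were measured. Calr (calreticulin), a chaperone of the loading complex, was higher in the LE at D4 (0.81 ± 0.17, adjusted p = 0.0105) and D7 (0.89 ± 0.17, adjusted p = 0.00676), where Tapbp was lower. Psmb10, a subunit of the immunoproteasome, was higher at D7 (0.59 ± 0.14, adjusted p = 0.0235). Its partner Psmb9 had -0.37 at D4 (adjusted p = 0.0691). Of 7 MHC class II genes, H2-DMb1 was lower in the LE at D7 (-0.57 ± 0.16, adjusted p = 0.0433), at a level below the array median.

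Markers of other cells were read on the same arrays. The basal keratinocyte genes Krt5, Krt14 and Trp63 lay between 11.1 and 12.7 on all 12 arrays, and 7 basal markers averaged 6.11 to 6.85 above the array median. Of these 7, Krt15 was lower in the LE at D4 (-2.48 ± 0.39, adjusted p = 0.00256) and D7 (-1.88 ± 0.39, adjusted p = 0.0108), and Itga6, the integrin of the sort, was higher at D4 (0.42 ± 0.11, adjusted p = 0.0327). Krt15 had 7.26 and 8.31 in the LE at D4, 9.13 and 10.25 in the hub, and 10.01 and 10.52 in control. Of 5 suprabasal genes, Krt1 (-0.77) and Krt10 (-0.69) were called lower in the LE at D4, and 0 were called at D7. The fold changes at D4 were negative for 4 of the 5 and positive for 1, Ivl. Ivl had LE and control means of 8.32 and 7.60 and was not called, and Flg was nearly level with 3.78 and 3.80. The leukocyte marker Ptprc was at 2.79 to 3.92 and the Langerhans cell marker Cd207 at 3.23 to 4.63, all below the array median. The list of 7 Langerhans and dendritic cell genes, which holds MHC class II genes, had a mean relative to the array median of 0.33 and 0.11 in the LE at D4, 0.02 and -0.00 in the hub, and -0.09 and -0.14 in control. At D7 it was 0.40 and 0.31 in the LE, -0.23 and -0.01 in the hub, and 0.95 and -0.17 in control, with control D7 replicate 1 apart from the rest. The difference at D4 rests on H2-Ab1, with LE and control means of 7.45 and 4.89, while H2-Eb1 had 6.59 and 6.40. Cd207 had 4.44 and 4.56, Cd74 5.55 and 5.73, and Cd86 4.99 and 5.02. H2-Aa had 6.72 and 6.73, and Ptprc 3.84 and 3.85. None of these 7 genes was called in the LE or hub against control. The 5 melanocyte genes averaged 2.97 above the median on hub D4 replicate 2 and 1.68 on control D4 replicate 1, and between -0.41 and -0.04 on the other 10. Thy1, 1 of 5 T cell genes measured, was lower in the LE at D4 (-1.39 ± 0.15) and D7 (-1.88 ± 0.15), while Cd3d, Cd3e and Cd3g had between -0.12 and 0.01. The 4 endothelial genes averaged 0.47 and 1.18 above the array median in the LE at D4, 0.21 and 0.66 in the hub, and 1.13 and -0.20 in control. At D7 they averaged 1.25 and 1.18 in the LE, 0.25 and -0.11 in the hub, and -0.07 and 0.29 in control, and Cdh5 was called higher in the LE (2.03 ± 0.52, adjusted p = 0.0270). The 5 fibroblast genes averaged -0.71 and -0.51 in the LE at D7, -0.44 and -0.45 in the hub, and -0.10 and -0.01 in control, and Dcn was lower in the LE (-2.59 ± 0.58, adjusted p = 0.0151). Dcn made most of this difference in the list. LE and control means at D7 were 4.39 and 4.49 for Col1a1 and 2.85 and 3.05 for Col1a2. They were 3.63 and 3.74 for Col3a1, and 3.44 and 3.33 for Pdgfra. Of 6 macrophage genes Cd68 (1.14 ± 0.31, adjusted p = 0.0368), and of 3 neutrophil genes Cxcr2 (0.79 ± 0.21, adjusted p = 0.0316), were higher in the LE at D4, and 0 of either list were called at D7. The rest of these lists was mixed in LE and control means at D4. Mrc1 had 4.47 and 4.06, Adgre1 4.60 and 4.52, and Mpo 4.94 and 4.86. Itgam had 5.20 and 5.63, Fcgr1 5.03 and 5.22, Csf1r 5.67 and 5.75, and Csf3r 4.63 and 4.82. The part of these other cells in the results above was not tested. Without control D4 replicate 1, Ddx58 and Oasl2 joined the LE calls at D4 and Tapbp left them. Without control D7 replicate 1, Parp9 joined those at D7, and Ifi27l2a and Tapbp left them. The call of Irf1 at D4 held in all 12 fits that each left out 1 array.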

How the data were processed

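The deposited values are log2 intensities of Affymetrix mouse PM strip arrays that the authors normalized by RMA (background correction, quantile normalization and probe summary). Its version is not given in the sources used. Of 45141 probe sets, 28898 were annotated to 1 gene, and among those of a gene the brightest on average was kept, which left 17097 genes. No filter on dim genes was applied. No detection calls were used.

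A means model of the 6 groups was fitted to all 12 arrays in limma 3.58.1 under R 4.3.3 (lmFit and eBayes, 6 residual degrees of freedom), with Benjamini-Hochberg adjustment over all genes. Errors are SE and intervals 95%, both from this fit, and the number of arrays limits the precision. The paired arrays of a group are labelled as biological replicates, but no source states that they came from separate pools, so p values measure the spread between these samples. Simulated data with 200 changed genes served to test the scripts.

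The genes and the related lists were chosen with earlier results of these data known. Array values are given for genes called in any of the 6 comparisons or past 2-fold, and related genes are named where called, up to 4 a list, with others as examples chosen after their values were seen. The alternatives were 2 other scalings, other choices of probe set, a filter on dim genes, another prior, array weights, smaller fits, a replicate block, the fold rule and fits without 1 array.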

Additional observations from a re-analysis of the deposited data

How the results depend on the processing

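No fold change of a called gene turned its sign in the 10 alternative fits (9 for Trim30a, which the filter on dim genes left out) or in the 12 fits that each left out 1 array. The count of called genes in the LE against control at D4, 5 in the main analysis, was 3 with the 6 arrays of the day alone, 2 with the 4 arrays compared alone, 8 with the replicate block within the day and 1 under the fold rule. It ran from 1 (without control D4 replicate 2) to 6 without 1 array, and was 2 without LE D4 replicate 2. At D7, 4 genes became 2 with the mean of a gene's probe sets and 0 under the fold rule, and were 5 with the arrays of the day alone and with the 4 arrays compared, which added Ddx58. They ran from 0 (without LE D7 replicate 1) to 4 without 1 array. In the LE against the hub at D4, 2 genes became 0 with the arrays of the day alone, 1 with the 4 arrays compared and 1 under the fold rule, and ran from 1 to 2 without 1 array (1 without either LE array of D4 or proliferative hub D4 replicate 2). At D7, 1 gene became 0 with that mean, with each probe set by itself, without genes below the median mean level, with the arrays of the day alone and with the replicate block, and ran from 0 to 1 without 1 array. The hub against control and the changes between days stayed at 0 called genes throughout. The cause of these moves was not tested. Irf1 in the LE at D4 was called in every alternative test (the fold rule, which is no test, gave none for it) and every fit without 1 array (adjusted p up to 0.0278).

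No source ties a replicate number to shared mice, so the numbers were not used as pairs in the main tests. The fold rule and the replicate block do set arrays of the same number side by side. The deviations of same-numbered arrays correlated over all genes with r of 0.170 to 0.245 at D4 and 0.00234 to 0.0666 at D7. Over the 33 genes r was higher at D4, with 0.296 (LE and hub), 0.316 (LE and control) and 0.644 (hub and control). At D7 it was 0.100081, -0.271 and -0.0166 for the same pairs of regions. Whether same-numbered arrays of D4 share material was not tested, so the D4 calls depend on how the numbers are treated. With the replicate block, Ifih1, Oasl2, Xaf1 and Rtp4 were added in the LE at D4 and Tapbp was lost (adjusted p = 0.0567). Signal over background limits the rest: 21 of the 33 genes fell out under the filter on dim genes.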

Other observations

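A pair of other probe sets of H2-D1 differed between replicate numbers at D4. One of them had 6.54 and 10.3 in the LE at D4 (replicates 1 and 2), 6.51 and 10.8 in the hub, and 6.04 and 10.7 in control, and at D7 8.79 and 8.98 in the LE, 10.0 and 9.94 in the hub, and 10.1 and 9.67 in control. Another had 6.37 and 11.4 in the LE at D4, 6.79 and 11.9 in the hub, and 6.10 and 11.7 in control. Of 28898 probe sets, these 2 were the ones in which replicate 2 lay more than 4-fold (2 on the log2 scale) from replicate 1 in one direction in all 3 regions at D4, and 0 did so at D7. At a limit of 1 the counts were 7 higher and 4 lower in replicate 2 at D4, and 1 and 0 at D7. The probe set of H2-D1 used above ran the other way and less far, with 11.89 and 11.35 in the LE at D4, 11.98 and 11.65 in the hub, and 12.04 and 11.58 in control. The cause of the split was not tested.

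H2-Ab1, an MHC class II chain, had 8.05 and 6.86 in the LE at D4, 6.19 and 5.68 in the hub, and 4.69 and 5.09 in control. The 3 regions did not overlap, and the fold change in the LE of 2.56 was not called (95% interval 0.24 to 4.89). At D7 it had 6.82 and 6.51 in the LE, 3.80 and 5.02 in the hub, and 7.78 and 3.59 in control, and the control arrays lay on both sides of the LE. Cd74, the invariant chain, had 4.10 and 4.11 in the LE at D7, 4.04 and 4.05 in the hub, and 5.87 and 4.30 in control.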
